A study of Mus musculus with 31 samples.

Results

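CD11b+ microglia of female APP/PS1 mice that were homozygous for the PLCγ2-P522R variant (A+/Pki/ki, n = 4) were compared with those of APP/PS1 mice with wild-type *Plcg2* (A+/Pwt/wt, n = 4). The libraries were chosen by the genotype in their labels, and they are 8 of the 31 RNA-seq libraries of the series. The comparison covered all expressed genes, which are the 17039 of 55401 genes that reached a minimum of 10 counts in 3 or more of the 8 libraries. The comparison asks how the variant alters the transcriptome of microglia that face amyloid pathology.

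All 8 mice were females of 13 months of age and, per the labels, of C57BL/6J background. All carried the APPswe/PS1dE9 transgene, which adds mutant forms of APP and of human presenilin 1 under a mouse prion promoter. The A+/Pki/ki mice were numbered 244, 335, 394 and 405 and carried the P522R knock-in, made by CRISPR/Cas9 editing, on both alleles in every cell of the body. The A+/Pwt/wt mice were numbered 331, 367, 375 and 380. Each library came from 1 mouse, and the cells were drawn from dissociated brain with magnetic beads against CD11b, an integrin subunit on microglia and other myeloid cells. All 8 libraries have a common batch tag in their labels. CD11b+ microglia of 7 female mice of the same age without the transgene (A-/Pwt/wt) are given as a reference range, and because they have another batch tag, the transgene and the batch cannot be told apart in that range. The number of 1 of these 7 mice, 236, is also that of a cortex library labelled A+/Pwt/wt, and both were used as labelled. The p-values below test a difference between groups against the spread between mice.

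PLCγ2 is a signalling enzyme of microglia and other blood-lineage cells. It acts below immune receptors such as TREM2, whose adaptor TYROBP recruits the kinase SYK, and it cleaves a membrane phospholipid into an inositol phosphate that releases calcium and a lipid that activates protein kinase C. The P522R change mildly raises the activity of the enzyme and is known as a variant that lowers the risk of Alzheimer's disease. In APP/PS1 mice, microglia gather at amyloid plaques and take on the disease-associated (DAM) state, in which genes such as *Cst7* and *Clec7a* are high.

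The codon that the knock-in alters is shown first, since it is the only engineered difference between the groups. *Plcg2* (ENSMUSG00000034330.10) lies on the plus strand at chr8:117498291-117635142 of GRCm38. In transcript ENSMUST00000081232.8, which has 1265 codons in 32 coding exons, the proline that P522R replaces is encoded by CCC at chr8:117589849-117589851 in exon 17. The spliced reference sequence around it follows, with this codon in capitals, and its first bases come from the exon before.
Plcg2 P522R codon: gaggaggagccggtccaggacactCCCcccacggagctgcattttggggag

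A table of counts per gene does not show which codon was read, so *Plcg2* itself cannot check the labels. *Plcg2* had 147, 197, 187 and 201 CPM (counts scaled to library size) in A+/Pwt/wt mice 331, 367, 375 and 380 and 194, 141, 232 and 235 CPM in A+/Pki/ki mice 244, 335, 394 and 405, and values are given in this order of mice throughout. The groups overlapped, with A+/Pki/ki mouse 335 the lowest of all 8 and mice 394 and 405 the highest. The means were 183 ± 24.6 and 201 ± 43.9 CPM (SD, n = 4 and 4), with a log2 fold change (log2FC, A+/Pki/ki over A+/Pwt/wt) of 0.13 and a 95% interval from −0.28 to 0.55. The adjusted p was 0.857 in edgeR's quasi-likelihood test, so that no difference in *Plcg2* level was detected within that interval. Of the 12 tested genes that start within 1 Mb of *Plcg2*, 5 were higher and 7 lower, with log2FC values from −0.67 to 0.28 and no gene without overlap between the groups.

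Before the results, the libraries were compared with each other. The 8 libraries held 18.9 to 25.1 M counts, and *Xist* (270 to 853 CPM) and *Ddx3y* (at most 0.0493 CPM) matched the sex in the labels in each of them. Principal component analysis put 66.0% of the variance on 1 axis, which ran along the level of neuronal genes. The axis did not hold neuronal genes alone, since *H2-Ea*, *Rpl26* and the choroid plexus gene *Ttr* were among its highest loadings. The mean log2 CPM of 15 neuron markers was 5.78, 4.804, 5.67 and 5.37 in A+/Pwt/wt mice and 4.16, 6.07, 3.04 and 2.63 in A+/Pki/ki mice. The A+/Pki/ki mice thus held both the highest library (335) and the 3 lowest (244, 394 and 405), and the correlation between pairs of libraries was 0.898 to 0.984 within A+/Pki/ki and 0.959 to 0.982 within A+/Pwt/wt. In none of 6 library measures, among them depth, genes detected and the first component, did the genotypes differ in an exact two-sided permutation test (p 0.171 to 0.514, adjusted 0.343 to 0.514, where 4 against 4 mice allow no p below 0.0286). List medians that move with the neuron markers are therefore also given in a fit with the neuron score as a covariate. In that fit the genotype and the score are estimated from the same 8 mice. The medians are also given without mice 331 and 335, the library with the highest neuron score in each genotype. Leaving out this pair did not even out the neuron level, since the median log2FC of neuron markers went from −0.85 to −1.94. Mice 331 and 380 stood apart in a few genes, among them *H2-Ea*, and for that gene they did not match the labelled background. Without these 2 mice, edgeR called 0 of 16578 genes, with 157 at an unadjusted p under 0.05.

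**Figure D1:**
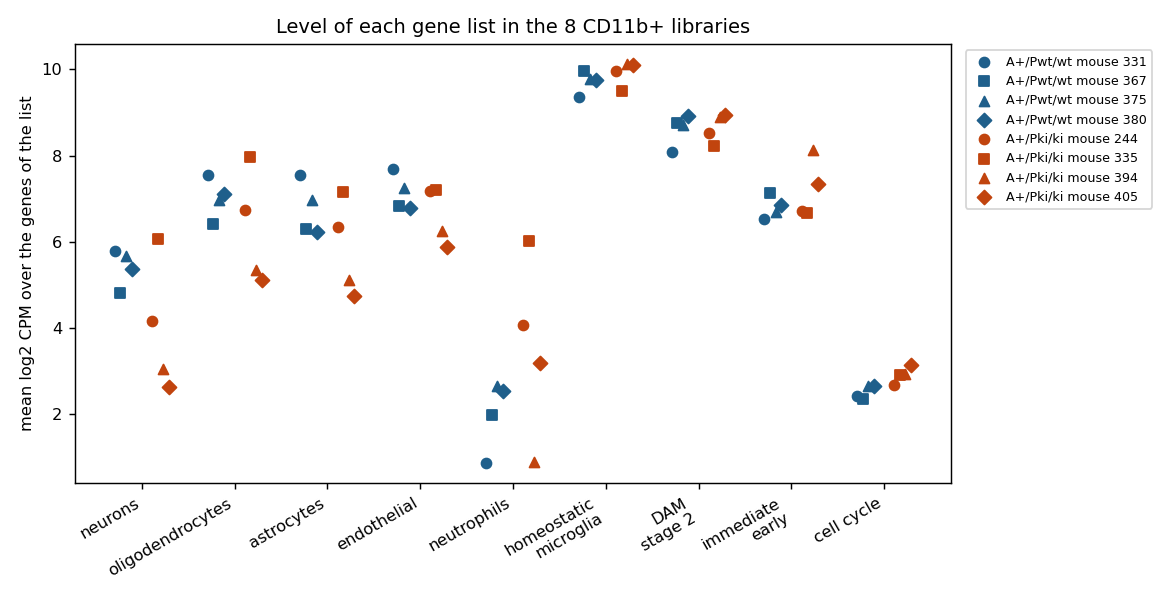
Mean log2 CPM over the genes of 9 lists (y axis) in each of the 8 CD11b+ libraries, with 1 point per mouse, A+/Pwt/wt mice in blue and A+/Pki/ki mice in orange. The neuron level spans 2.63 to 6.07 in A+/Pki/ki mice and 4.804 to 5.78 in A+/Pwt/wt mice, whereas the cell cycle list has all 4 A+/Pki/ki mice (2.68 to 3.15) above the A+/Pwt/wt mice (2.35 to 2.66).

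No gene was called between the genotypes. At a false discovery rate of 0.05, edgeR's quasi-likelihood test called 0 of 17039 genes (0.0%), with 575 genes at an unadjusted p under 0.05 (304 higher, 1.78%, and 271 lower, 1.59%) and a smallest adjusted p of 0.853. The median log2FC over all genes tested was 0.00, with 8642 genes higher and 8397 lower. The 95% interval of the log2FC lay within ±1 for 10501 genes (61.6%) and within ±0.5 for 5418 genes (31.8%). Of 11192 genes that averaged 5 CPM or more, 80.9% had an interval within ±1. Without mice 331 and 335, edgeR again called 0 genes, with 1229 of 16568 genes higher (7.42%) and 2104 lower (12.7%) at an unadjusted p under 0.05. These intervals are for single genes, without adjustment over all genes tested, and are not a limit of detection for a call. *Ecscr* (log2FC 0.83, 95% interval 0.51 to 1.15) had an adjusted p of 0.853 in the same edgeR test. Differences inside these intervals, and some outside them, were thus not detectable with 4 mice a group at this spread.

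For most genes the spread itself was wider in A+/Pki/ki mice. The SD of log2 CPM over 4 mice was larger in A+/Pki/ki than in A+/Pwt/wt for 11958 genes (70.2%), and its median was 0.344 and 0.272, respectively. Genes are not independent of each other, and many of them follow the same component, so that these shares are given without a test.

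**Figure D2:**
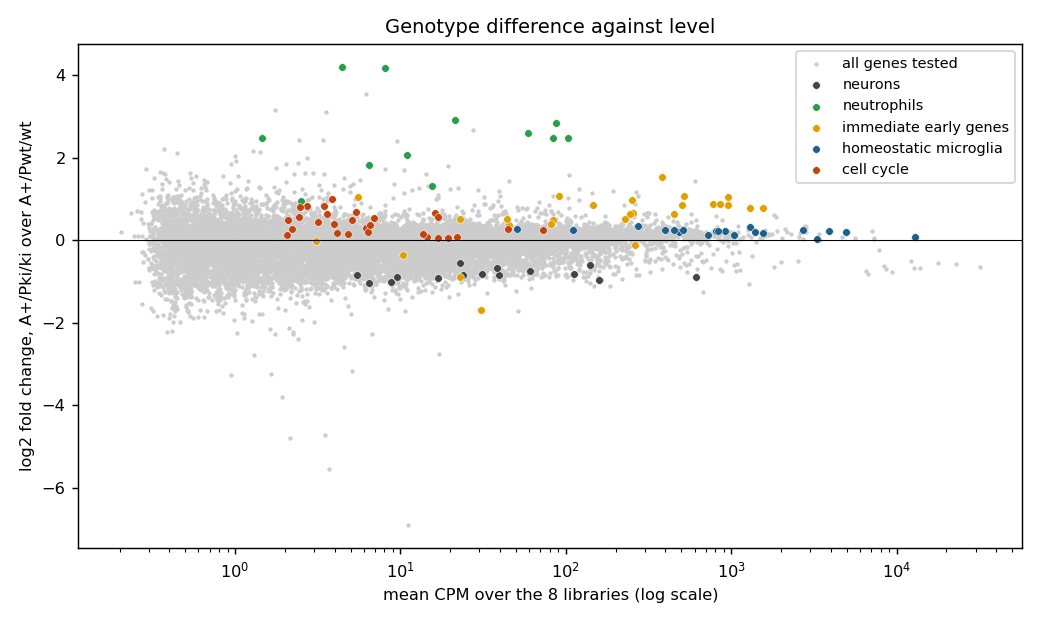
Log2 fold change of A+/Pki/ki over A+/Pwt/wt (y axis) against the mean CPM over the 8 libraries (x axis, log scale), with 1 point per gene for 17039 genes and 5 lists in colour. Neuron markers lie below 0 and neutrophil markers above it, the 28 cell cycle genes all lie above 0, and the 20 homeostatic microglia genes lie between 0.03 and 0.34.

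The identity genes of microglia were close between the genotypes. All 20 genes of the homeostatic microglia list were higher in A+/Pki/ki mice, by a log2FC of 0.03 to 0.34 (median 0.22), but none was called or had an unadjusted p under 0.05, and in none did the groups fail to overlap (2.25% of all genes had no overlap in either direction). *P2ry12*, a purinergic receptor that senses nucleotides released from damaged cells, had 807, 1445, 1251 and 1122 CPM in A+/Pwt/wt mice and 1468, 949, 1735 and 1626 CPM in A+/Pki/ki mice (log2FC 0.32, SE 0.24, adjusted p 0.853). Mice 331 and 335 were the lowest of their groups. *Slc2a5*, a fructose transporter of microglia, had 177, 240.3, 294 and 255 CPM compared with 348, 217, 328 and 327 CPM (log2FC 0.34, SE 0.20). It was above the A+/Pwt/wt range in every A+/Pki/ki mouse except 335. *Tmem119* and *Cx3cr1*, surface proteins of resident microglia, had log2FC values of 0.22 and 0.25. The homeostatic median was −0.11 with the neuron covariate and 0.26 without mice 331 and 335, so its sign depended on how the neuronal level was treated. In a sample of mixed RNA, a lower share of microglia and less of a transcript in each cell cannot be told apart.

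The receptors and adaptors that feed PLCγ2 followed the same course. Of 24 genes on that list, 21 were higher and 3 lower, with a median log2FC of 0.16 and a range of −0.14 to 0.30, and 0 had an unadjusted p under 0.05. *Trem2*, the lipid-sensing receptor upstream of PLCγ2 (chr17:48346401-48354147), had 1053, 1598, 1246 and 1488 CPM in A+/Pwt/wt mice and 1367, 1173, 1777 and 1723 CPM in A+/Pki/ki mice (log2FC 0.17, SE 0.20, adjusted p 0.853). The groups overlapped over most of their range. The log2FC was 0.11 for its adaptor *Tyrobp* and 0.26 for *Syk*, and 0.20 for *Csf1r*, the receptor for the growth factors on which microglia depend. *Lcp2*, which encodes the scaffold SLP-76 that holds PLCγ enzymes near their receptors, had 86.5, 128, 112 and 114 CPM compared with 136, 92.6, 155 and 148 CPM (log2FC 0.28, SE 0.19). The list's median was −0.13 with the neuron covariate and 0.21 without mice 331 and 335.

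Downstream of PLCγ2, the median over 32 genes for calcium release, diacylglycerol and protein kinase C signalling was 0.05, with 21 genes higher, 11 lower and 0 at an unadjusted p under 0.05. *Inpp5d*, whose phosphatase SHIP1 limits the lipid signal that recruits PLCγ2, was the most abundant of them at 568 ± 112 and 666 ± 167 CPM (log2FC 0.23, SE 0.23). *Bcl10*, part of the complex that leads from protein kinase C to NF-κB, was 36.0 ± 2.75 and 43.9 ± 9.30 CPM (log2FC 0.29, SE 0.15). *Itpr1*, an inositol trisphosphate receptor that is abundant in neurons, had the lowest log2FC of the list at −0.80 (SE 0.47), and its value was −0.10 with the neuron covariate. Of 14 tested phospholipase C isoforms, 7 were higher and 7 lower, and *Plcb2*, the most abundant one after *Plcg2*, had a log2FC of 0.09 (SE 0.20).

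The DAM genes did not separate the genotypes either. Of 20 stage 2 DAM genes, 15 were higher and 5 lower (median 0.11, −0.22 with the neuron covariate), and of 7 stage 1 genes, 6 were higher and 1 lower (median 0.06, −0.15 with the covariate). *Cst7*, which encodes an inhibitor of lysosomal proteases, had 549.9, 769, 619.6 and 815 CPM in A+/Pwt/wt mice and 560.5, 549.8, 829 and 869 CPM in A+/Pki/ki mice, against 9.35 to 31.0 CPM in A-/Pwt/wt mice (log2FC 0.03, SE 0.21, adjusted p 0.971). *Clec7a*, the β-glucan receptor dectin-1, had a log2FC of 0.03 (SE 0.20). All 8 APP/PS1 libraries thus lay far above the transgene-free range for these genes, whatever the *Plcg2* genotype, a gap that cannot be told apart from the batch. *Apoe* had a log2FC of 0.06 (95% interval −0.40 to 0.52), and *Ctsd*, a lysosomal protease, of 0.03 (SE 0.23).

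A few DAM genes, in both directions, and the fibronectin gene had larger differences. *Csf1* had the highest log2FC of the stage 2 list at 0.63 (SE 0.41), and −0.17 with the neuron covariate. It had 168, 266, 280 and 368 CPM in A+/Pwt/wt mice and 292, 197, 753 and 438 CPM in A+/Pki/ki mice. *Spp1*, which encodes the secreted protein osteopontin (chr5:104435118-104441050), had 144, 207, 445 and 359 CPM in A+/Pwt/wt mice and 123, 149, 129.9 and 196 CPM in A+/Pki/ki mice, with 13.0 to 67.9 CPM in A-/Pwt/wt mice. Only mouse 331 among A+/Pwt/wt mice reached into the A+/Pki/ki range. Its log2FC was −0.95 (SE 0.35, adjusted p 0.853), −1.01 with the neuron covariate and −1.15 without mice 331 and 335. *Itgax*, the integrin subunit CD11c, had 188, 495, 456 and 606 CPM compared with 333, 244, 257 and 435 CPM (log2FC −0.46, SE 0.35, −0.76 with the neuron covariate). *Fn1*, which encodes the matrix protein fibronectin and is also made outside microglia, had 338, 259, 350.4 and 230.4 CPM compared with 288, 217, 151 and 148 CPM (log2FC −0.55, 95% interval −1.12 to 0.01, and −0.26 with the neuron covariate). *Spp1* overlaps another annotated gene on its strand and *Fn1* one on the other strand, which the unstranded counts cannot separate.

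**Figure D3:**
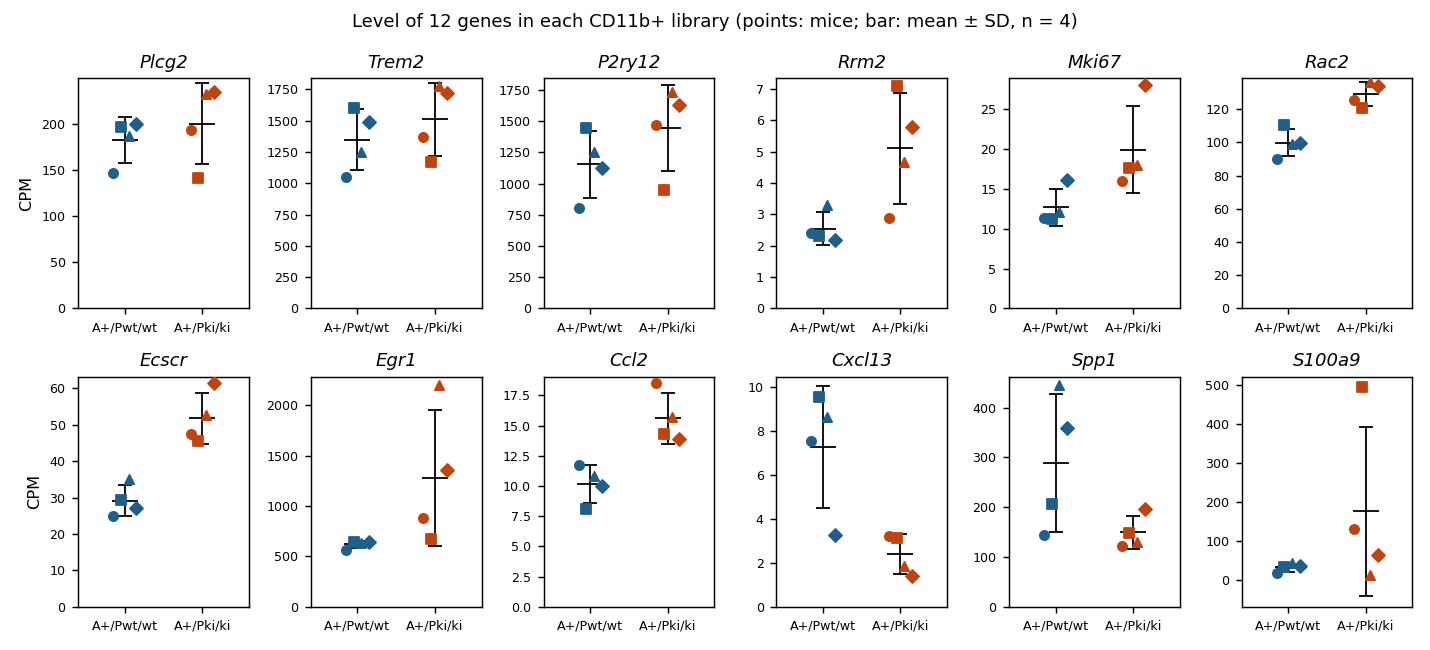
CPM (y axis, from 0 in all panels but *S100a9*) of 12 genes in each of the 8 CD11b+ libraries, with 1 point per mouse and the mean ± SD of 4 mice in black. The points of *Rac2*, *Ecscr*, *Egr1*, *Ccl2* and *Cxcl13* do not overlap between the genotypes, whereas those of *Plcg2*, *Trem2*, *P2ry12*, *Rrm2*, *Mki67*, *Spp1* and *S100a9* do.

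All 28 tested genes of the cell cycle list were higher in A+/Pki/ki mice, by a log2FC of 0.06 to 1.00 (median 0.37, against 0.00 over all genes), and none was called. Of them, 9 had an unadjusted p under 0.05 (1.78% of all genes were higher at that level). In 3 (*Aurka*, *Bub1b* and *Nusap1*) the groups did not overlap, which was so in this direction for 215 of all genes (1.26%). *Rrm2*, a subunit of the enzyme that makes deoxynucleotides for DNA synthesis (chr12:24708241-24714146), had 2.40, 2.30, 3.31 and 2.18 CPM in A+/Pwt/wt mice and 2.89, 7.08, 4.68 and 5.78 CPM in A+/Pki/ki mice (log2FC 1.00, SE 0.30, adjusted p 0.853). *Mki67*, the proliferation marker Ki-67 (chr7:135689784-135716361), had 11.3, 11.2, 12.1 and 16.1 CPM compared with 16.001, 17.6, 17.98 and 27.9 CPM (log2FC 0.65, SE 0.21). Both genes overlapped by only 1 mouse of 1 genotype.

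*Bub1b*, a checkpoint kinase of mitosis, had 2.67, 4.85, 4.83 and 4.26 CPM in A+/Pwt/wt mice and 5.87, 6.04, 6.75 and 7.91 CPM in A+/Pki/ki mice (log2FC 0.68, SE 0.23). *Nusap1*, a spindle protein, had 3.13, 2.88, 2.36 and 2.81 CPM compared with 3.36, 5.37, 4.29 and 4.50 CPM (log2FC 0.65, SE 0.20). *Top2a*, which untangles replicated DNA, and *Ube2c*, which helps to end mitosis, had log2FC values of 0.56 (SE 0.22) and 0.82 (SE 0.25). The mean log2 CPM over the list was 2.43, 2.35, 2.66 and 2.65 in A+/Pwt/wt mice and 2.68, 2.90, 2.93 and 3.15 in A+/Pki/ki mice, which do not overlap, and 1.70 to 2.29 in A-/Pwt/wt mice. The list's median stayed between 0.27 and 0.44 in the 11 other settings tried, and was 0.30 with the neuron covariate and 0.35 without mice 331 and 335. With each mouse left out in turn it was 0.30 to 0.45. Neutrophil markers, which come from cells whose precursors divide, were also higher in A+/Pki/ki mice (12 of 12, median 2.48), and their part in the cell cycle values was not tested. Both *Nusap1* and *Ube2c* share bases with a gene on the other strand.

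Genes of actin and cell motility were also higher in A+/Pki/ki mice, by small amounts. Of 31 genes, 28 were higher and 3 lower (median log2FC 0.20), 5 had an unadjusted p under 0.05, and in 6 the groups did not overlap, all of them higher (over all genes, 1.78% were higher at an unadjusted p under 0.05 and 1.26% without overlap). *Actb*, the cytoplasmic actin, had 2424, 2449.9, 2546 and 2408 CPM in A+/Pwt/wt mice and 2905, 2631, 3666 and 3281 CPM in A+/Pki/ki mice (log2FC 0.35, SE 0.16). *Coro1a*, an actin-binding protein of leukocytes, had 295, 324, 317 and 325 CPM compared with 373, 338, 433 and 403 CPM (log2FC 0.30, SE 0.11). *Arhgdib*, which holds small GTPases inactive, had 118, 139.7, 115 and 112 CPM compared with 144, 158, 154 and 155 CPM (log2FC 0.34, SE 0.10). The list's median was 0.04 with the neuron covariate and 0.26 without mice 331 and 335, and the covariate values of *Actb*, *Coro1a* and *Arhgdib* were 0.18, 0.16 and 0.32. *Coro1a* and *Arhgdib* each overlap a gene on the other strand.

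Of 33 phagocytosis genes, 28 were higher and 5 lower (median 0.18, −0.08 with the neuron covariate). The one without overlap between the groups was *Rac2* (1.26% of all genes were so in this direction). *Rac2*, a small GTPase of blood-lineage cells that drives actin remodelling and the oxidative burst (chr15:78559167-78572783), had 90.1, 110.3, 99.3 and 99.7 CPM in A+/Pwt/wt mice and 126, 121, 136 and 134 CPM in A+/Pki/ki mice. Its log2FC was 0.37 with an SE of 0.09, a 95% interval of 0.15 to 0.59 and an adjusted p of 0.853, and it was 0.28 with the neuron covariate and 0.38 without mice 331 and 335. Neutrophils express *Rac2* as well. Of 42 lysosomal genes, 36 were higher and 6 lower with a median of 0.08 (−0.14 with the covariate), and 40 of them had a 95% interval within ±1.

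The 2 genes that DESeq2, an alternative to edgeR, called higher were *Ecscr* and *Pstpip1*. *Ecscr*, named for its role as a chemotaxis regulator on endothelial cells (chr18:35713086-35722356), had 25.0, 29.4, 35.1 and 27.3 CPM in A+/Pwt/wt mice and 47.4, 45.6, 52.8 and 61.4 CPM in A+/Pki/ki mice. The groups were well apart, and the A-/Pwt/wt range of 45.8 to 80.7 CPM covered most of the A+/Pki/ki values. Its log2FC was 0.83 (SE 0.14, 95% interval 0.51 to 1.15), with an adjusted p of 0.853 in edgeR and 0.00163 in DESeq2, and 0.0509 to 1.00 over the other settings and tools. The endothelial markers were all lower in A+/Pki/ki mice (0 of 11 higher, median −0.45, and 0.04 with the neuron covariate). Which cells the *Ecscr* counts came from was not tested.

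*Pstpip1*, an adaptor between the actin cytoskeleton and phosphatases in leukocytes, had 4.70, 6.31, 6.63 and 5.81 CPM compared with 8.47, 9.08, 9.56 and 10.1 CPM (log2FC 0.66, SE 0.15, adjusted p 0.853 in edgeR and 0.0424 in DESeq2). DESeq2 called 7 of 15647 genes in all (0.0447%), and the other 5 were lower in A+/Pki/ki mice. *Car13*, a cytosolic carbonic anhydrase, had 4.38, 4.81, 6.29 and 3.24 CPM compared with 2.00, 2.23, 2.17 and 1.74 CPM (log2FC −1.20, SE 0.24, DESeq2 adjusted p 0.0194), and the A-/Pwt/wt mice had 1.91 to 2.69 CPM. *Prg4*, which encodes the lubricating glycoprotein lubricin, was 4.03 ± 1.41 and 1.06 ± 0.530 CPM (log2FC −1.93, SE 0.41, DESeq2 adjusted p 0.0262), and shares bases with *Tpr* on the other strand.

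The remaining 3 were copies of other genes, *Gm12751*, *Gm6166* and *Rps18-ps5*, whose reads the counting may divide with their parent genes. *Gm12751* (chr4:34354043-34354423) had 6.22, 5.52, 0.449 and 4.31 CPM in A+/Pwt/wt mice and 0.128, 0.238, 0.148 and 0.0709 CPM in A+/Pki/ki mice (DESeq2 adjusted p 2.6e-05). *Gm6166* had 3.73, 4.43, 5.62 and 0.581 CPM compared with 0.298, 0.0950, 0.197 and 0.3901 CPM (DESeq2 adjusted p 0.000646). In both, 1 A+/Pwt/wt mouse, 375 for *Gm12751* and 380 for *Gm6166*, was near the A+/Pki/ki level. The A-/Pwt/wt mice, which also have wild-type *Plcg2*, had 0 to 0.182 CPM of *Gm12751* and 0 to 0.193 CPM of *Gm6166*. A low level of these 2 genes was thus not confined to A+/Pki/ki mice. *Rps18-ps5* was high in mice 331 (19.3 CPM) and 380 (13.8 CPM) and between 0.936 and 1.91 CPM in the other 6.

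Cytokine and chemokine genes moved apart from each other. Of 30 genes, 22 were higher and 8 lower (median 0.25), and none was called. At an unadjusted p under 0.05, 6 were higher and 3 lower (1.78% and 1.59% of all genes). In 1 gene in each direction the groups did not overlap (1.26% of all genes higher and 0.986% lower). *Ccl2*, which attracts monocytes (chr11:82035571-82037453), had 11.8, 8.11, 10.8 and 10.02 CPM in A+/Pwt/wt mice and 18.5, 14.3, 15.7 and 13.9 CPM in A+/Pki/ki mice, without overlap (log2FC 0.61, SE 0.16, adjusted p 0.853). It was 0.68 with the neuron covariate and 0.75 without mice 331 and 335. *Cxcl13*, which attracts B cells (chr5:95956951-95961068), had 7.56, 9.57, 8.65 and 3.29 CPM compared with 3.23, 3.14, 1.87 and 1.42 CPM, without overlap in the other direction (log2FC −1.59, SE 0.40, adjusted p 0.853), although mouse 380 was only just above A+/Pki/ki mouse 244. *Ccl5*, a T cell attractant, had 13.6, 9.03, 10.6 and 5.71 CPM compared with 5.19, 4.13, 5.96 and 4.86 CPM (log2FC −0.95, SE 0.26).

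Both *Tnf* and *Il1a*, which encode inflammatory cytokines, were led by 1 mouse. *Tnf* had 51.0, 68.3, 80.7 and 85.7 CPM in A+/Pwt/wt mice and 84.0, 80.5, 345 and 167 CPM in A+/Pki/ki mice (log2FC 1.24, SE 0.46). *Il1a* had 67.0, 104, 93.3 and 92.8 CPM compared with 111, 81.0, 416 and 185 CPM (log2FC 1.15, SE 0.47). In both, mouse 394 was far above the rest and mouse 335 within the A+/Pwt/wt range, and with each mouse left out the lowest log2FC was 0.63 for *Tnf* and 0.49 for *Il1a*. With the neuron covariate their log2FC values were 0.39 and 0.17. *Ccl3* was 350.3 ± 69.7 and 546 ± 187 CPM (log2FC 0.64, SE 0.26, 0.20 with the neuron covariate). Of 31 Toll-like receptor and inflammasome genes, 29 were higher (median 0.22), with *Nfkbia*, the inhibitor that NF-κB induces, at 0.88 (SE 0.39), *Cd14*, a co-receptor for bacterial lipopolysaccharide, at 0.65 (SE 0.30) and *Pycard*, the inflammasome adaptor, at 0.37 (SE 0.16). With the neuron covariate the median of the list was −0.06, with 8 of 31 genes higher, and *Nfkbia*, *Cd14* and *Pycard* were at 0.12, 0.07 and 0.18. Without mice 331 and 335 the median was 0.28.

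The immediate early genes, which are transcribed within minutes of a stimulus and also during the handling of tissue, had mice 394 and 405 on top. Of 27 genes, 22 were higher and 5 lower (median 0.65), 9 had an unadjusted p under 0.05 in the higher direction (1.78% of all genes), and in *Egr1* and *Ier2* the groups did not overlap (1.26% of all genes in this direction). *Egr1*, a zinc-finger transcription factor (chr18:34859823-34864984), had 568, 647, 630.5 and 640.0 CPM in A+/Pwt/wt mice and 883, 678, 2203 and 1356 CPM in A+/Pki/ki mice (log2FC 1.04, SE 0.34, adjusted p 0.853). *Ier2* had 180.4, 157, 166 and 172 CPM compared with 212, 200.1, 622 and 287 CPM (log2FC 0.97, SE 0.35). The A-/Pwt/wt mice had 895 to 1818 CPM of *Egr1* and 197 to 555 CPM of *Ier2*, above all A+/Pwt/wt mice.

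Mice 394 and 405, the highest in these genes, were also the lowest in neuron markers, and the part of that in the result was not tested. The list's median was 0.10 with the neuron covariate, 0.84 without mice 331 and 335, and 0.03 without mice 394 and 405. The covariate values of *Egr1* and *Ier2* were 0.36 and 0.44. *Zfp36*, which encodes an RNA-binding protein that shortens the life of cytokine mRNAs, had 1043, 1297, 1051 and 1189 CPM compared with 1343, 1118, 3251 and 2199 CPM (log2FC 0.79, SE 0.33). *Hspa1b*, a heat shock protein on the same list, went the other way with 8.43, 103, 23.3 and 51.6 CPM compared with 6.51, 14.5, 13.5 and 23.4 CPM (log2FC −1.68, SE 0.71). Among 20 lineage transcription factors, 19 were higher (median 0.23, −0.13 with the neuron covariate). *Cebpb*, an inflammatory transcription factor, had a log2FC of 0.59 (SE 0.26, 0.22 with the covariate).

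**Figure D4:**
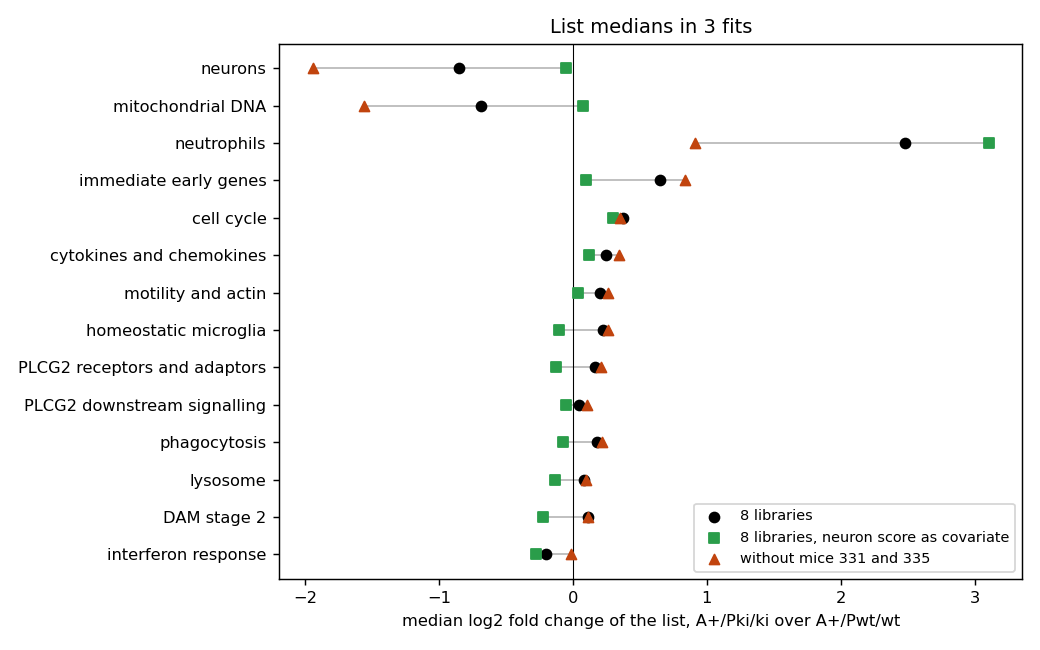
Median log2 fold change of A+/Pki/ki over A+/Pwt/wt (x axis) for 14 gene lists (y axis) in the fit of 8 libraries (circles), with the neuron score as a covariate (squares) and without mice 331 and 335 (triangles). The median of the cell cycle list stays between 0.30 and 0.37 in these 3 fits, whereas those of the homeostatic, PLCG2 receptor, phagocytosis, lysosome and DAM stage 2 lists lie above 0 in 2 fits and below 0 with the covariate.

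Most interferon response genes were lower in A+/Pki/ki mice. Of 35 genes, 31 were lower and 4 higher (median −0.20). Of these, 1 was lower at an unadjusted p under 0.05 (1.59% of all genes). None was without overlap (2.25% of all genes in either direction). *Ifit1*, which binds viral RNA, had 27.4, 17.1, 17.9 and 15.4 CPM in A+/Pwt/wt mice and 15.7, 14.5, 11.9 and 6.88 CPM in A+/Pki/ki mice (log2FC −0.67, SE 0.28). *Rsad2*, the antiviral enzyme viperin, had 26.6, 16.9, 19.6 and 15.6 CPM compared with 15.6, 15.9, 15.02 and 9.33 CPM (log2FC −0.50, SE 0.23). Mouse 331 was the highest and mouse 405 the lowest for both. The list's median was −0.28 with the neuron covariate and −0.02 without mice 331 and 335.

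In lipid metabolism, *Acacb* and *Apoc1* had groups without overlap, both lower in A+/Pki/ki mice (0.986% of all genes were so in this direction). *Acacb*, the acetyl-CoA carboxylase that restrains fatty acid oxidation, had 25.99, 16.5, 16.5 and 22.1 CPM in A+/Pwt/wt mice and 15.5, 15.2, 6.99 and 7.02 CPM in A+/Pki/ki mice (log2FC −0.86, SE 0.32, −0.40 with the neuron covariate). *Apoc1*, an apolipoprotein gene beside *Apoe*, had 3.23, 1.59, 3.31 and 2.08 CPM compared with 1.40, 1.43, 0.837 and 1.21 CPM (log2FC −1.06, SE 0.32, −0.74 with the covariate). The 43 genes of fatty acid and lipid droplet metabolism had a median of −0.05, with 13 higher and 30 lower, and the 19 of cholesterol efflux and lipoproteins a median of 0.05, with 12 higher and 7 lower.

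Among the non-overlapping higher genes that averaged 5 CPM or more, *Gnpda1* and *Hmgn2* were 2 of the 10 with the largest log2FC. *Gnpda1*, which feeds amino sugars into glycolysis, had 10.5, 23.2, 33.1 and 38.9 CPM in A+/Pwt/wt mice and 56.6, 43.1, 43.5 and 60.4 CPM in A+/Pki/ki mice (log2FC 0.95, SE 0.36). *Hmgn2*, a nucleosome-binding protein with many processed copies in the genome, had 65.9, 68.1, 21.1 and 40.5 CPM compared with 78.0, 94.7, 88.7 and 74.9 CPM (log2FC 0.78, SE 0.33). Over all genes, 143 of the 215 non-overlapping higher genes and 63 of the 168 lower ones averaged 5 CPM or more, with median log2FC values of 0.34 and −0.69 for the 215 and the 168.

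Markers of other brain cell types had a wide range between libraries, widest in A+/Pki/ki mice. All 15 neuron, 13 astrocyte, 11 oligodendrocyte, 11 endothelial and 7 choroid plexus markers were lower in A+/Pki/ki mice, with median log2FC values of −0.85, −0.69, −0.29, −0.45 and −1.11, and none of these genes had an unadjusted p under 0.05. With the neuron covariate these medians were −0.05, 0.09, 0.46, 0.04 and −0.19, and 11 of the 11 oligodendrocyte markers were higher. The covariate is the mean of the same 15 neuron markers, so the neuron median of this fit was largely fixed by it. Without mice 331 and 335 the medians, in the same order, were −1.94, −0.96, −0.97, −0.42 and −1.86. All 15 neuron markers were then lower at an unadjusted p under 0.05 (12.7% of all genes in that fit). Mice 331 and 335 were chosen by their level of these same 15 markers. The neuron values of that fit are therefore only a description. *Camk2a*, a kinase of excitatory neurons, had 843, 485, 1071 and 756 CPM in A+/Pwt/wt mice and 252, 1198, 168 and 93.0 CPM in A+/Pki/ki mice. *Mbp*, a myelin protein, had 36820.2, 14642, 32375 and 26214 CPM compared with 18359.5, 45653, 4669 and 4828 CPM. *Ttr*, the thyroid hormone carrier of choroid plexus, had 2653, 542, 1249 and 2469 CPM compared with 819, 2255, 137 and 97.0 CPM. For all 3 genes, mice 394 and 405 were below every A+/Pwt/wt mouse, and mouse 335 was above at least 2 of the 4.

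The 13 genes of mitochondrial DNA ran with them. All were lower in A+/Pki/ki mice (median −0.69), and *mt-Co1*, a subunit of cytochrome oxidase, had 42158, 24936, 49665 and 38497 CPM compared with 21505, 54639.6, 11855 and 10555 CPM (log2FC −0.66, SE 0.57). Of 84 nuclear genes for the respiratory chain and ATP synthase, 76 were lower and 8 higher (median −0.16). Both medians changed sign in the fit with the neuron covariate, to 0.08 and 0.21, and were −1.56 and −0.29 without mice 331 and 335. The median of the respiratory chain list also changed sign without mice 394 and 405, and without mice 331 and 380. The cause of these changes was not tested. Ribosomal protein genes had a median of 0.06 (62 higher and 24 lower of 86), and of 0.24 with the covariate.

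Neutrophil markers differed in the opposite direction. All 12 were higher in A+/Pki/ki mice (median 2.48), and 10 had an unadjusted p under 0.05 (1.78% of all genes in this direction). In 0 of the 12 did the groups fail to overlap (1.26% of all genes in this direction). These markers are not independent of each other. Their summed level was 53.1, 117, 157 and 151 CPM in A+/Pwt/wt mice and 519, 1944, 45.3 and 236 CPM in A+/Pki/ki mice, so that mouse 335 was highest and mouse 394 lowest of all 8. *S100a9*, a calcium-binding alarmin of granulocytes (chr3:90692632-90695721), had 15.9, 33.0, 42.7 and 35.0 CPM compared with 131, 494, 12.7 and 62.3 CPM (log2FC 2.47, SE 0.94, adjusted p 0.853). *Ngp*, a granule protein of immature neutrophils, had 7.28, 20.7, 26.6 and 30.2 CPM compared with 112, 442, 6.95 and 48.6 CPM (log2FC 2.85, SE 1.06). The list's median was 1.15 to 2.86 with each mouse left out, 0.91 without mice 331 and 335 and 3.11 with the neuron covariate. Monocyte markers were also higher (4 of 4, median 1.30), and 7 of 10 border macrophage markers were (median 0.12).

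Some genes divided the 8 mice into a high and a low set that did not follow the *Plcg2* genotype. Among 14586 genes that averaged 1 CPM or more, 27 had a gap of at least 2.5 on the scale of log2(CPM + 0.1) with at least 2 mice on each side. Of these, 14 are annotated as pseudogenes and 10 as protein-coding, 21 had high mice in both genotypes, 6 in A+/Pwt/wt mice alone and 0 in A+/Pki/ki mice alone. They were chosen by these gaps, so their values are a description.

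*H2-Ea*, an MHC class II gene annotated as a polymorphic pseudogene that C57BL/6 mice do not express (chr17:34341959-34344645), had 43.9, 0.0418, 0 and 44.4 CPM in A+/Pwt/wt mice and 0, 0.760, 0 and 0 CPM in A+/Pki/ki mice, and 0 in all 7 A-/Pwt/wt mice. It was thus high in mice 331 and 380, and *Msh5*, on the same chromosome, and *Rps18-ps5* were high in the same 2 mice. The labels give all 8 mice the same background, which mice 331 and 380 did not match for *H2-Ea*, and the part of this in the other results was examined only by leaving out these 2 mice. The median of the cell cycle list was then 0.37, and that of oligodendrocyte markers changed sign to 0.14. Sign changes also occurred in the medians of PI3K and AKT, cholesterol synthesis, and cholesterol efflux and lipoproteins. The same held for the nuclear respiratory chain list and for markers of T, B and NK cells. *Rpl26*, a ribosomal protein gene (chr11:68901583-68906989), had 13.6 and 13.8 CPM in A+/Pki/ki mice 394 and 405 and 287 to 852 CPM in the other 6. The processed pseudogene *Gm15772* (chr5:3236431-3236868) had 172, 5.39, 121 and 121 CPM compared with 3.96, 5.51, 222 and 217 CPM, which put mice 394 and 405 with 3 of the A+/Pwt/wt mice. For such genes the fitted log2FC (−0.17 for *Rpl26*, 0.09 for *Gm15772*) describes neither set of mice.

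**Figure D5:**
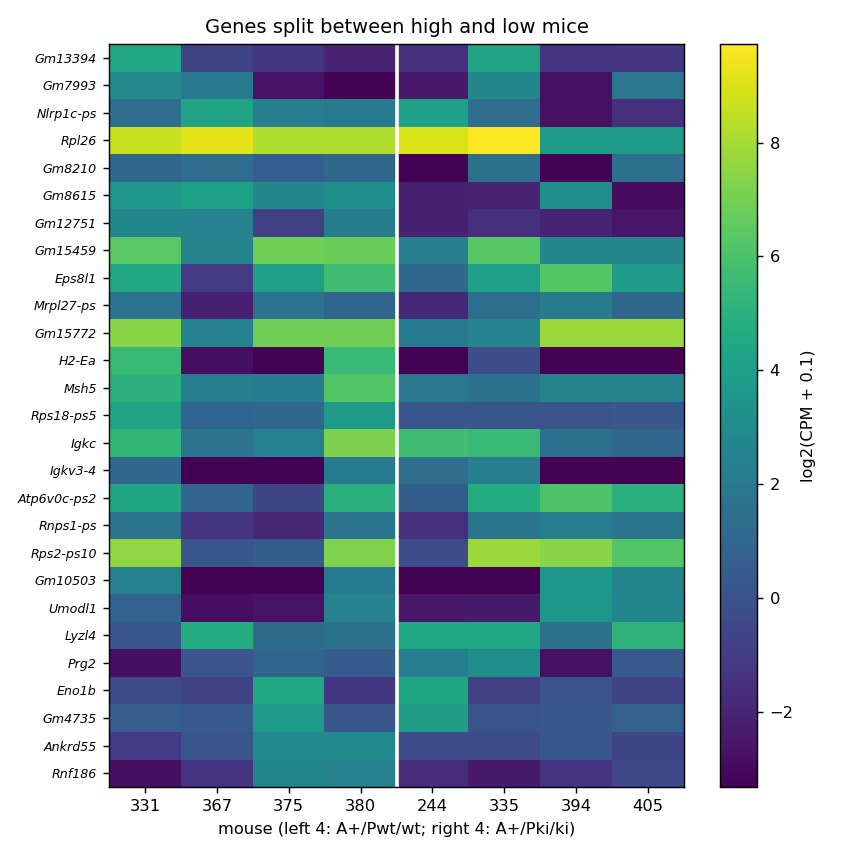
Level of the 27 split genes (rows) in the 8 CD11b+ libraries (columns, A+/Pwt/wt mice on the left of the white line and A+/Pki/ki mice on the right), as log2(CPM + 0.1) in colour. *H2-Ea* is high in mice 331 and 380, and *Rpl26* is low in mice 394 and 405 (13.6 and 13.8 CPM) and at 287 to 852 CPM elsewhere.

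The effect of P522R in these libraries was further compared with the effect in temporo-occipital cortex of female APP/PS1 mice (4 A+/Pki/ki and 4 A+/Pwt/wt libraries) and in CD11b+ microglia of male mice without the transgene (4 KI and 3 WT libraries). For the difference between effects, edgeR called 0 of 19942 genes against cortex (0.0%, 1018 at an unadjusted p under 0.05) and 0 of 17619 against males (0.0%, 4664 at an unadjusted p under 0.05). DESeq2 called 2 and 1167 genes, and limma with voom and quality weights 2038 and 8244. Without A+/Pki/ki mouse 335 edgeR called 1619 and 6199 genes, and 3 against males without male KI mouse 104. Without cortex library 236 it called 0 genes against cortex, with 849 at an unadjusted p under 0.05. Per the labels, the mice of all these libraries were of the same age. The male and female mice differ also in the transgene and in their batch, which cannot be told apart from sex.

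The part of neuron markers in these differences was not tested. Their summed level was 771 to 1706 CPM in male KI and 235 to 343 CPM in male WT mice, and 207 to 2632 CPM in A+/Pki/ki and 1087 to 2046 CPM in A+/Pwt/wt females on the same scale. The male groups did not overlap, and the female groups did. *Ecscr* had a difference in log2FC of 1.0098 (SE 0.25, adjusted p 0.854) from cortex and of 1.22 (SE 0.23, adjusted p 0.143) from males. For *Egr1* the differences were 1.28 (SE 0.38) and 1.52 (SE 0.44), and for *Plcg2* 0.23 (SE 0.21) and 0.46 (SE 0.23).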

How the data were processed

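RNA of CD11b+ cells was sequenced as poly(A)-selected paired-end libraries. Per the labels and the study's methods, the authors checked reads with FastQC 0.11.7, trimmed them with Trimmomatic 0.39, aligned them with STAR 2.7.9a to GRCm38 and, with featureCounts 2.12.0 in R 4.2.2, counted the unique primary alignments of each gene without regard to strand. The deposited raw counts were used for all tests but 1, which used the variance-stabilized values on a log2 scale that the authors deposited. Of 67 genes named here with sensitivity values, 17 share bases with an antisense gene and 3 with another sense gene, which makes those counts uncertain. The depth per library was 18.9 to 25.1 M counts.

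Genes that reached a minimum of 10 counts in 3 or more libraries were tested with edgeR 4.0.16 in R 4.3.3 (TMM scaling, two-sided quasi-likelihood test, Benjamini-Hochberg adjustment, threshold 0.05), fitted on the 8 libraries. The same test was used for the differences from the effects in cortex and in males, as an interaction within 1 fit. CPM are TMM-scaled over the 8 libraries and log2 CPM use a prior count of 2. A-/Pwt/wt ranges are from TMM scaling over all 15 female CD11b+ libraries. The SE of a log2FC was computed from the log2FC and the F statistic. The scripts were tested on simulated data.

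The alternatives were DESeq2 size factors, no filter and filterByExpr, the Wald test of DESeq2 1.42.0, limma 3.58.1 with voom and quality weights, limma on the variance-stabilized values, a fit of 15 libraries, the neuron score as a covariate, each library left out, and 3 pairs of libraries left out, chosen after the data were seen. The members and the 44 gene lists were chosen with earlier results of these data known. Named were *Plcg2* and its neighbours, genes the study discusses, up to 10 non-overlapping genes in each direction that averaged 5 CPM or more, the most abundant and lowest-p members of each list, genes that an alternative called, and genes with the largest spread within genotypes. *Syk*, *Tmem119*, *Cx3cr1*, *Itgax*, *Clec7a*, *Cst7*, *Mki67*, *Top2a*, *Nusap1*, *Bub1b*, *Aurka*, *Tnf*, *Il1a*, *Ccl5*, *Hspa1b*, *Msh5*, *Rpl26* and the other split genes were chosen after their values were seen. Some named items are not reported here. Coordinates come from Gencode on GRCm38, in which 17023 of the tested genes were found.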

Additional observations from a re-analysis of the deposited data

Results flagged for a closer look

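Among 144 groups of 4 mice examined, of the named genes in each genotype, 6 had 1 mouse so far from the other 3 that the gap took up most of the group's range (Dixon's test at the 95% level). Chance flags about 1 in 20 groups. All 6 were in A+/Pki/ki mice. Mouse 335 was high in *Camk2a* (1198 CPM, the others 93.0 to 252 CPM) and in *H2-Ea* (0.760 CPM, the others 0), and low in *Csf1r* (3615 CPM, the others 5753 to 5995 CPM) and *Slc2a5* (217 CPM, the others 327 to 348 CPM). Mouse 405 was high in *Mki67* (27.9 CPM, the others 16.001 to 17.98 CPM) and low in *Rsad2* (9.33 CPM, the others 15.02 to 15.9 CPM). No explanation was tested.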

How the results depend on the processing

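The count of genes between the genotypes was 0 in edgeR and in every limma and edgeR setting tried with all 8 mice, and 7 in DESeq2. It was 0 to 1 with each mouse left out, with *Gm12751* called without mouse 375 (adjusted p 0.0409, and 2.6e-05 to 1.00 over its settings). The number at an unadjusted p under 0.05 was 286 to 4594 with a mouse left out (4594 without mouse 335) and 5234 with voom. Leaving out mice 331 and 335 (3333), 394 and 405 (197) or 331 and 380 (157) was added after the data were seen. Against cortex, DESeq2 called 2 and voom 2038 genes, and 0 to 1619 with a library left out, and against males 1167, 8244 and 0 to 6199, the largest without mouse 335, with 3 without male KI mouse 104. With the neuron covariate the log2FC changed sign to −0.044 for *Apoe*, −0.26 for *Clec7a*, −0.15 for *Csf1r*, −0.30 for *Cst7*, −0.17 for *Ctsd*, −0.091 for *Cx3cr1*, −3.61 for *Gm15772*, −0.20 for *Inpp5d*, −0.070 for *Lcp2*, 0.36 for *Mbp*, −0.089 for *P2ry12*, −0.28 for *Plcb2*, −0.22 for *Plcg2*, 0.53 for *Rpl26*, −0.15 for *Syk*, −0.0049 for *Tmem119*, −0.14 for *Trem2*, 0.094 for *Ttr*, −0.15 for *Tyrobp* and 0.077 for *mt-Co1*. Without mice 394 and 405 it was −0.10 for *Apoe*, −0.16 for *Clec7a*, −0.31 for *Cst7*, −0.20 for *Ctsd*, −4.47 for *Gm15772*, −0.034 for *Inpp5d*, 0.22 for *Mbp*, −0.12 for *Plcb2*, −0.13 for *Plcg2*, 0.80 for *Rpl26*, −0.086 for *Trem2* and −0.11 for *Tyrobp*. Without mice 331 and 380 it was −0.094 for *Clec7a*. *Gm15772* was −0.19 with voom and −0.79 on the variance-stabilized values. With each mouse left out, the sign changed for *Clec7a* (−0.10 to 0.17), *Cst7* (−0.091 to 0.16), *Ctsd* (−0.068 to 0.16), *Gm15772* (−0.48 to 0.53), *Plcb2* (−0.0095 to 0.27) and *Rpl26* (−1.11 to 0.23). The cause was not tested. Of 731 other values of 67 genes, 689 kept direction and call, 7 passed the threshold (all in DESeq2) and 35 changed sign. Of 44 lists, 28 changed the sign of their median in some setting and 13 with a mouse left out. No paired analysis was possible because the groups share no mouse numbers. With 4 mice a group, log2FC values below the interval widths given above were not resolved, and some larger ones were not called after adjustment over all genes.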
